A study of Homo sapiens with 26 samples.

Results

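The villin and gelsolin family is described here as 8 genes chosen by symbol: AVIL, VIL1, SCIN, GSN, CAPG, SVIL, VILL and FLII. All 8 are listed in each of the 5 deposited tables, among 19128 gene symbols in each knockout table and 19117 in the parental table. The samples are human small cell lung cancer lines, a neuroendocrine-type lung tumour of which a subset carries the tuft cell transcription factor POU2F3. Into 4 lines that express this factor, lentivirus carried 1 of 2 POU2F3 guides (sgPOU2F3e10.1 or sgPOU2F3e10.2) or a control guide, sgNeg. Harvest was on day 4 for NCI-H1048 and NCI-H211, and on day 5 for NCI-H526 and COR-L311. The other 14 libraries are uninfected parental lines in exponential growth, 1 library per line: these 4 and DMS114, DMS79, NCI-H128, NCI-H146, NCI-H446, NCI-H510, NCI-H524, NCI-H69, NCI-H82 and NCI-H889. Growth media differed between lines, with NCI-H1048 in HITES and NCI-H128 in RPMI with 20% serum.

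Proteins of this family bind actin through gelsolin-like repeats, and most respond to calcium. Gelsolin (GSN), scinderin (SCIN) and villin (VIL1) sever filaments and cap their fast-growing ends, while CAPG caps without severing. Villin, advillin (AVIL), villin-like (VILL) and supervillin (SVIL) also carry a villin headpiece, a compact actin-binding domain at the C-terminus. Villin is best known from the microvilli of intestinal brush borders. Advillin is known from sensory neurons and from tuft cells, whose tall apical microvilli gave them their name. Supervillin links actin and myosin II to membranes, and FLII joins gelsolin-like repeats to leucine-rich repeats and is found in nearly all cells.

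Promoter sequences were read because POU2F factors bind an octamer, ATGCAAAT, and AVIL was higher in the lines with POU2F3 than in the others. RefSeq windows of 300 bases (250 before the start of transcription and 50 from it on, build GRCh38.p14) matched 7 of the 8 members by symbol, with 20 windows in all. The 8 letters, searched on both strands, were in 0 of these 20 windows and in 623 of all 35116 windows (1.77%). Their first 7 letters, ATGCAAA, a search added after the values were seen, were in 1 of these 20 windows, that of AVIL. Over all windows, 1567 (4.46%) held them, which includes every window with the 8 letters. At that share, 1 of 20 windows does not set the family apart from all windows. In AVIL the match lies on the gene's own strand, with 39 bases between it and the start. The AVIL window is printed with that match in capitals, and the window of SCIN, the member with the next lowest knockout ratio in a single line, is printed beside it without a match.
AVIL, chr12:57818685-57818984, minus strand: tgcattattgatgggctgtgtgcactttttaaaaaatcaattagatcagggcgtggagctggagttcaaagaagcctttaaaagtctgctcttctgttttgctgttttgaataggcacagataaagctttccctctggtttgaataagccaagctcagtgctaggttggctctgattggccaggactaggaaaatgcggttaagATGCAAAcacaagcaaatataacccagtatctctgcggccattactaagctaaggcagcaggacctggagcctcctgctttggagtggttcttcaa
SCIN, chr7:12570470-12570769, plus strand: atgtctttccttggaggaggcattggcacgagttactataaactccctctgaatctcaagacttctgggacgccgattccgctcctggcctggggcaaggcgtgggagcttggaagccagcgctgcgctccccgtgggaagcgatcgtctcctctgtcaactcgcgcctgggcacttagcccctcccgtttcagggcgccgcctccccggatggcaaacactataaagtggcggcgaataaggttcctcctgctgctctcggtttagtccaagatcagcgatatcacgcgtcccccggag
A match is a run of letters and not a measured binding site, and no binding data were analysed here.

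Values are the authors' FPKM (fragments per kilobase of transcript and per mapped mega-fragment), which allow levels of different genes to be set side by side. In the knockout tables both POU2F3 guides of a line are merged into 1 value beside 1 sgNeg value, so replication is over lines (n = 4). The labels do not say that libraries came from separate cultures. Depth was estimated at 9.33 to 14.8 M fragments (M, mega) for sgNeg, 17.8 to 29.5 M for sgPOU2F3 and 9.33 to 30.9 M for the parental columns. At the sgNeg depths 1 fragment is worth 0.0070 to 0.0743 FPKM, depending on the member, so values under 0.1 FPKM rest on few fragments. Parental POU2F3 was 188.6 to 387 FPKM in the 4 knockout lines and at most 0.608 in the 10 others. The 13 tuft cell markers, POU2F3 included, summed to 664 to 2020 FPKM in the 4 lines and 3.15 to 33.8 in the others. After the POU2F3 guides, POU2F3 RNA stood at 6.95% of sgNeg in NCI-H211, 30.7% in NCI-H1048, 40.7% in NCI-H526 and 80.4% in COR-L311. Guide-induced changes in coding sequence can leave RNA in place, so these shares do not measure protein.

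In the uninfected lines AVIL was the member that set the 4 POU2F3 lines apart. AVIL FPKM was 310.5 in NCI-H526, 269.6 in NCI-H211, 258 in COR-L311 and 76.2 in NCI-H1048. In the 10 other lines it ran from 0.432 in DMS114 over a median of 0.824 to 8.39 in NCI-H889. The 2 groups did not overlap, and the lowest POU2F3 line, NCI-H1048, lay well above the highest other line. The difference of mean log2(FPKM + 1) was 6.35 (SE 0.55, limma adjusted p = 8.55e-06), the 5th smallest p of 13226 genes tested. An exact two-sided permutation test over the 1001 splits of 4 against 10 gave p = 0.000999, the smallest it can give. Of all genes tested, 0.212% were called higher in the 4 lines and 0.0378% lower at an adjusted p of 0.05, and 0.401% were higher without overlap and 0.25% lower without overlap.

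AVIL was 1 of 8 members called higher in the parental comparison, and 0 were called lower. VIL1 was the only other member under an unadjusted p of 0.05. At that level 4.6% of all genes were higher and 4.06% lower, against 2 and 0 of the 8 members. VIL1 FPKM was 60.4 in NCI-H211, 49.5 in NCI-H526, 10.2 in COR-L311 and 0.0746 in NCI-H1048. Thus NCI-H1048, a line with 188.6 FPKM of POU2F3, held almost no villin RNA. Among the other lines VIL1 was listed at 0 in DMS114, NCI-H128 and NCI-H446, with a median of 0.111 over the 10 lines. It reached 1.63 in DMS79, 14.7 in NCI-H146 and 44.3 in NCI-H510, so the groups overlapped. The difference was 2.62 on the log2 scale (SE 1.13, 95% interval 0.22 to 5.02, limma adjusted p = 0.524, exact permutation p = 0.0619).

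Summed enterocyte marker levels were low in the POU2F3 lines, also in those with villin RNA. The 8 enterocyte markers summed to at most 2.68 FPKM in any of the 4 parental POU2F3 lines and to at most 4.84 in their infected columns. Of these markers, ALPI, an intestinal alkaline phosphatase, and FABP1, a fatty acid carrier, were listed at 0 in all 4 sgNeg columns. The highest was SLC5A1, at 2.22 FPKM with sgNeg and 4.41 with sgPOU2F3 in COR-L311 and 1.11 and 1.47 in NCI-H526. APOA1 was 1.46 FPKM in NCI-H211 with sgNeg. The 8 leukocyte markers summed to 2.15 to 10.8 FPKM in the infected columns. The defining marker PTPRC was at most 0.0682 there, while CD68 reached 6.75 and CD14 4.32, both in COR-L311, and LYZ 6.04 in NCI-H211 with sgPOU2F3.

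SCIN, which severs filaments and is known from secretory cells, varied without regard to the 2 groups. Its FPKM was 20.8 in parental NCI-H526, 4.45 in NCI-H211, 0.0777 in NCI-H1048 and 0 in COR-L311. In the other lines the lowest value was 0.0139 (NCI-H82), the median 0.997 and the highest 59.7 in NCI-H510, followed by 52.6 in NCI-H889. NCI-H510 and NCI-H889 were also the 2 lines outside the POU2F3 group with the most AVIL, at 6.66 and 8.39 FPKM. In the 3 lines with NEUROD1 above 100 FPKM (NCI-H446, NCI-H524 and NCI-H82), AVIL, VIL1, SCIN and VILL were all under 1 FPKM. The same held in NCI-H69, where NEUROD1 was 2.66 FPKM. This grouping of lines was made after the values were seen and has no test.

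The remaining members were shared by both groups. FLII, the broadly expressed member, was the steadiest: 17.4 to 31.9 FPKM in the POU2F3 lines and 16.8 to 65.2 in the others, with the top value in NCI-H510. GSN was 9.45 to 19.9 FPKM in the POU2F3 lines, inside the range of the others, where NCI-H146 had 1.75 and DMS79 had 72.8. CAPG split both groups. Its 2 higher POU2F3 lines were NCI-H211, at 29.0 FPKM, and NCI-H526, at 13.7, against 1.37 in COR-L311 and 0.694 in NCI-H1048, and in the others it ran from 0.272 (NCI-H82) to 34.0 (NCI-H146). SVIL was 0.816 to 8.85 FPKM against 0.495 to 11.0, and NCI-H1048 was the highest POU2F3 line, the reverse of its place for AVIL. VILL stayed under 1 FPKM in the POU2F3 lines (0.165 to 0.578) and reached 2.71 in DMS114. For these 5 members and SCIN the difference of means was -0.34 to 0.12 on the log2 scale, with limma adjusted p of at least 0.881 and wide intervals, for example -2.15 to 2.40 for CAPG. Such intervals do not show that the groups are alike.

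**Figure D1:**
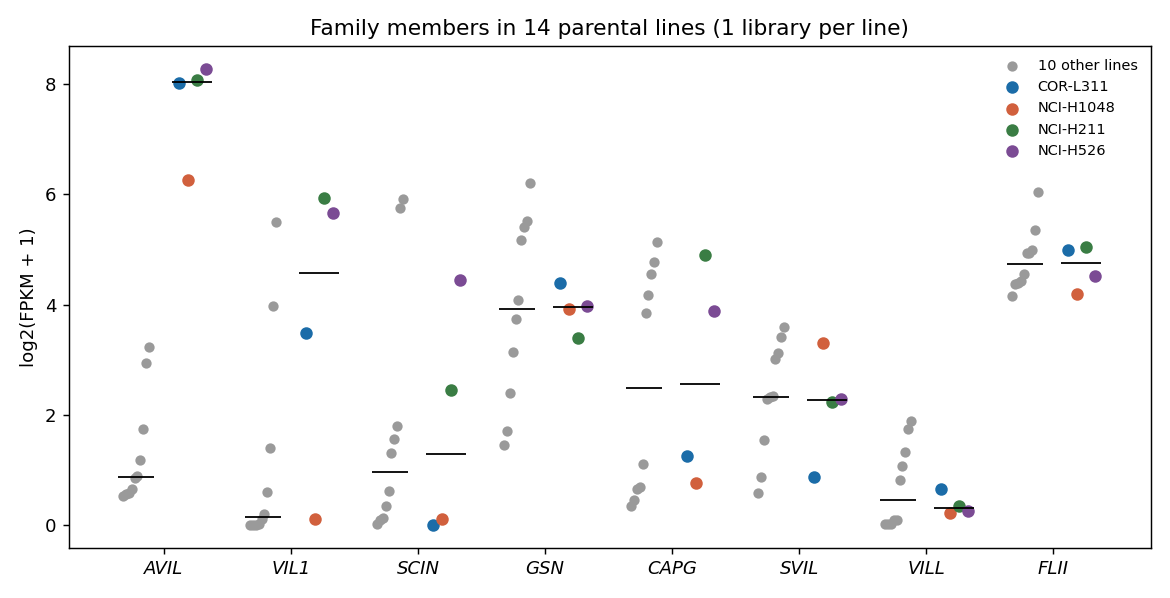
Levels of the 8 members in 14 parental lines, as log2(FPKM + 1), 1 point per library. Grey points are the 10 other lines, coloured points the 4 POU2F3 lines, and black bars the group medians. AVIL is the only member whose groups do not overlap, with 76.2 to 310.5 FPKM against 0.432 to 8.39.

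The makeup of the family differed accordingly. AVIL made up 80.2% of the members' summed FPKM in parental COR-L311, 71.4% in NCI-H526, 65.9% in NCI-H211 and 64.8% in NCI-H1048. In none of the 10 other lines did AVIL lead, and its largest share there was 8.12% in NCI-H889. FLII led in NCI-H82 (88.8%), NCI-H524 (82.3%), NCI-H128 (46.1%) and NCI-H510 (27.6%). GSN led in DMS79 (58.1%), NCI-H69 (52.0%) and NCI-H446 (49.7%), and CAPG in DMS114 (38.9%) and NCI-H146 (35.7%). SCIN led in NCI-H889 alone, with 51.0%.

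**Figure D2:**
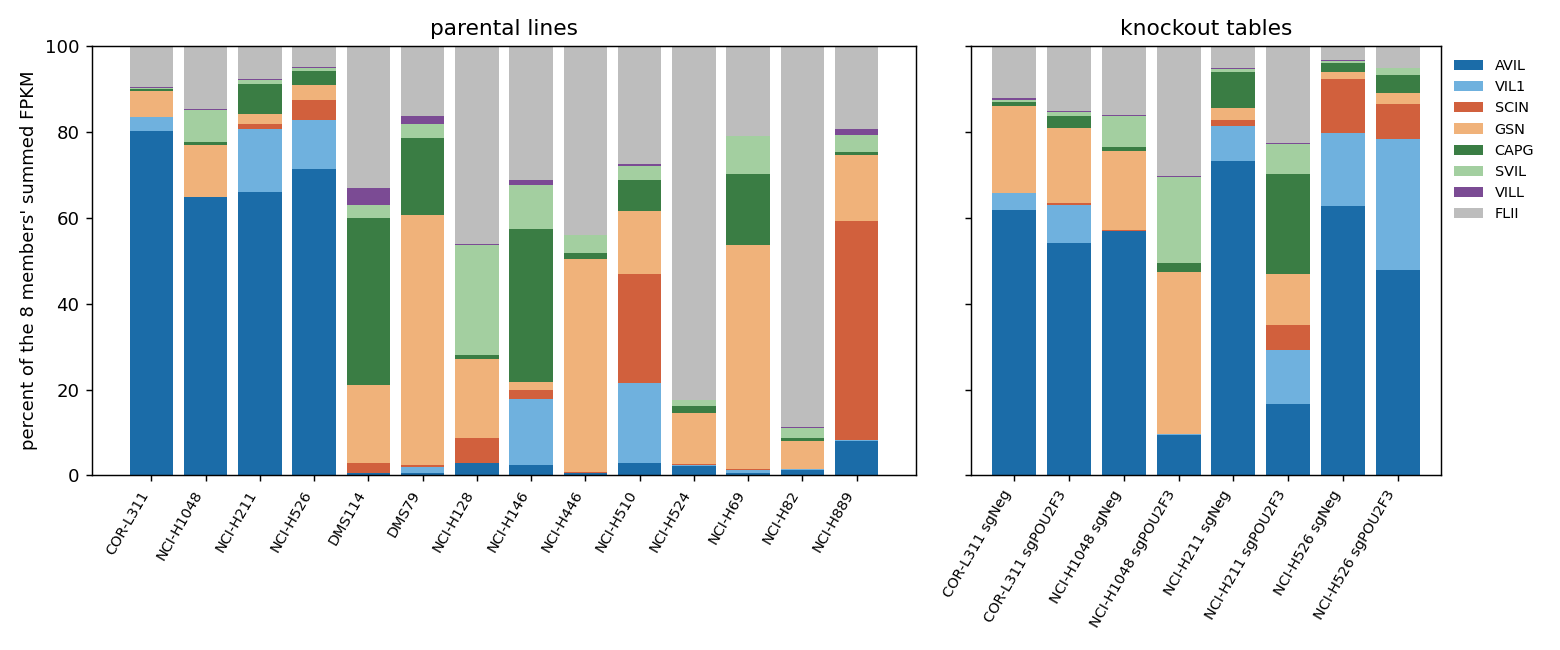
Share of each member in the summed FPKM of the 8 members, in percent, for the 14 parental lines (left) and the 8 columns of the knockout tables (right). AVIL fills 64.8% to 80.2% of the bar in the 4 parental POU2F3 lines. In the infected columns it fills 56.9% to 73.1% with sgNeg and 9.33% to 54.1% with sgPOU2F3.

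The knockout comparison asked what the family did when POU2F3 was targeted. AVIL was lower with the POU2F3 guides in 4 of 4 lines. AVIL FPKM was 136.8 with sgNeg and 70.3 with sgPOU2F3 in COR-L311, 54.95 and 5.28 in NCI-H1048, 283.7 and 21.5 in NCI-H211, and 354 and 152 in NCI-H526. The remaining share was thus 51.4%, 9.61%, 7.56% and 43.0% of the control. The 2 lines harvested on day 4 kept the least, and in every line the sgPOU2F3 value also lay below that line's parental value. The log2 ratios of FPKM + 1 were -0.95, -3.16, -3.66 and -1.21, a mean of -2.25 ± 1.36 (SD, n = 4 lines). AVIL did not pass the adjusted threshold, with a limma SE of 0.48, a 95% interval of -3.40 to -1.10, an unadjusted p of 0.00281 and an adjusted p of 0.368. By p it was 92nd of 12387 genes tested. The summed level of the 13 tuft cell markers was also lower, but the list includes POU2F3, the target of the guides. The sum was 1873 FPKM with sgNeg and 986 with sgPOU2F3 in COR-L311 and 683 and 239 in NCI-H1048. In NCI-H211 it was 2262 and 243, and in NCI-H526 1737 and 834. At least 2-fold lower were 4, 7, 10 and 5 of the markers in the same order, and none was 2-fold higher. POU2F3 was among the 2-fold lower markers in NCI-H1048, NCI-H211 and NCI-H526. The part of the markers in the AVIL values was not tested.

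Within single lines AVIL was near the bottom of all genes. Counted from the lowest ratio, it ranked 3rd in NCI-H1048, 7th in NCI-H211, 14th in NCI-H526 and 301st in COR-L311. COR-L311 sgNeg cells already had less AVIL than the parental library of that line (136.8 against 258 FPKM), a gap of -0.91 on the log2 scale close in size to the ratio between its arms. In the other 3 lines sgNeg and parental AVIL differed by 0.07 to 0.46 in size. The parental and knockout tables were normalized separately, and 1 control column per line gives no error for such gaps. For all genes, the median size of the sgNeg against parental difference was 0.29 to 0.32, and 4.28% to 6.28% of genes were at least 2-fold apart.

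SVIL was higher with the POU2F3 guides in 4 of 4 lines, again without passing. SVIL FPKM was 0.782 with sgNeg and 1.37 with sgPOU2F3 in COR-L311, 7.07 and 11.3 in NCI-H1048, 3.32 and 9.17 in NCI-H211, and 2.60 and 4.82 in NCI-H526. Every sgPOU2F3 value exceeded both the sgNeg and the parental value of its line, and the largest ratio was in NCI-H211. The log2 ratios were 0.41, 0.61, 1.24 and 0.70, a mean of 0.74 ± 0.35 (SD, n = 4 lines, limma SE 0.17, 95% interval 0.33 to 1.14, unadjusted p = 0.00398, adjusted p = 0.378). SVIL is also expressed by muscle and stromal cells. In NCI-H211 the summed level of 10 fibroblast and smooth muscle markers was 12.9 FPKM with sgNeg and 75.5 with sgPOU2F3, of which TAGLN, a smooth muscle actin-binding protein, was 3.72 and 50.3. At least 2-fold higher were 4 of the 10 markers and 1 was 2-fold lower. In the other 3 lines, where SVIL was also higher, those sums were 6.99 to 16.8 and 8.19 to 21.6. Their part in the SVIL values was not tested.

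Of 7 members tested, limma called 0 lower and 0 higher at an adjusted p of 0.05, and 1 lower (AVIL) and 1 higher (SVIL) at an unadjusted p of 0.05. Over all genes tested the adjusted calls were 0% lower and 0.0161% higher, and the unadjusted ones 7.08% lower and 4.67% higher. AVIL was the 1 member lower in 4 of 4 lines, where 12.9% of all genes were, and SVIL the 1 member higher in 4 of 4, where 9.81% were. Below both controls in 4 of 4 lines were 4.27% of genes, and above both 4.92%. The members' median log2 ratio was -0.10 (7 tested), beside -0.02 over all genes.

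**Figure D3:**
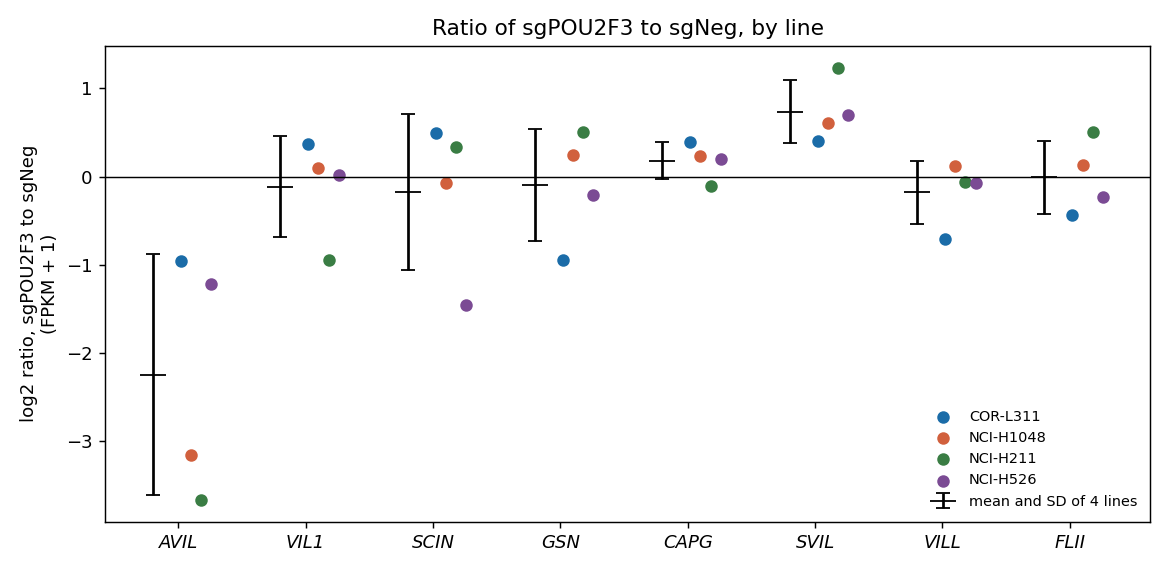
Log2 ratio of FPKM + 1, sgPOU2F3 to sgNeg, for each member. Coloured points are the 4 lines, black bars the mean and SD. AVIL lies below 0 in 4 of 4 lines and SVIL above 0 in 4 of 4, while the other members have lines on both sides of 0.

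VIL1, the villin of brush borders, had ratios on both sides of 0. VIL1 FPKM was 8.69 with sgNeg and 11.5 with sgPOU2F3 in COR-L311, 0.0643 and 0.138 in NCI-H1048, 31.9 and 16.1 in NCI-H211, and 95.8 and 97.2 in NCI-H526. NCI-H211 was the 1 line with less, at 50.6% of sgNeg, and in NCI-H526 VIL1 stood at 101.5% of sgNeg where AVIL stood at 43.0%. In both lines the sgNeg value lay far from the parental one, at 31.9 against 60.4 FPKM in NCI-H211 and 95.8 against 49.5 in NCI-H526. These gaps were -0.90 and 0.94 on the log2 scale, beside a log2 ratio between the arms of -0.94 in NCI-H211. Which of the controls is the better baseline for VIL1 was not tested. The mean log2 ratio was -0.11 ± 0.57 (SD, n = 4 lines, limma adjusted p = 0.852, 95% interval -0.64 to 0.41).

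Among the infected columns SCIN was highest in NCI-H526. SCIN FPKM was 0.0342 with sgNeg and 0.461 with sgPOU2F3 in COR-L311, 0.0535 and 0 in NCI-H1048, 5.83 and 7.61 in NCI-H211, and 70.9 and 25.3 in NCI-H526. In NCI-H526 the log2 ratio of -1.45 was the 4th lowest of 12387 genes. The control there was itself 1.72 above the parental library on the log2 scale (70.9 against 20.8 FPKM), and the sgPOU2F3 value of 25.3 lay near the parental one. Which of the 2 controls is the better baseline was not tested. Across lines the mean was -0.17 ± 0.89 (SD, n = 4 lines, limma adjusted p = 0.848).

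GSN and FLII had opposite signs on the 2 harvest days. GSN FPKM was 17.8 with sgNeg and 21.3 with sgPOU2F3 in NCI-H1048 and 10.4 and 15.2 in NCI-H211, the day 4 lines. It was 44.7 and 22.8 in COR-L311 and 9.56 and 8.17 in NCI-H526, the day 5 lines. COR-L311 sgNeg again stood apart from its parental library, at 44.7 against 19.9 FPKM, and the sgPOU2F3 value was close to the latter. FLII FPKM was 15.6 and 17.1 in NCI-H1048, 20.2 and 29.1 in NCI-H211, 26.8 and 19.6 in COR-L311, and 19.1 and 16.2 in NCI-H526. The mean log2 ratio was -0.10 ± 0.64 for GSN (limma adjusted p = 0.888) and -0.01 ± 0.41 for FLII (adjusted p = 0.988), each SD over 4 lines. Of all genes tested, 12.6% had both lines of 1 day on one side of 0 and both lines of the other day on the other side.

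CAPG, which caps filaments, had ratios on both sides of 0. CAPG FPKM was 2.45 with sgNeg and 3.55 with sgPOU2F3 in COR-L311, 0.897 and 1.24 in NCI-H1048, 32.4 and 29.9 in NCI-H211, and 11.9 and 13.8 in NCI-H526. Its mean log2 ratio was 0.18 ± 0.21 (SD, n = 4 lines, limma adjusted p = 0.597, 95% interval -0.13 to 0.50), the smallest spread of the 7 members tested. VILL reached 1 FPKM in 1 of the 8 columns and was not tested. VILL FPKM was 1.10 and 0.287 in COR-L311 (26.2% of sgNeg), 0.0631 and 0.155 in NCI-H1048, 0.335 and 0.282 in NCI-H211, and 0.347 and 0.283 in NCI-H526. COR-L311 thus had less VILL with sgPOU2F3 and NCI-H1048 more, at low levels in both.

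**Figure D4:**
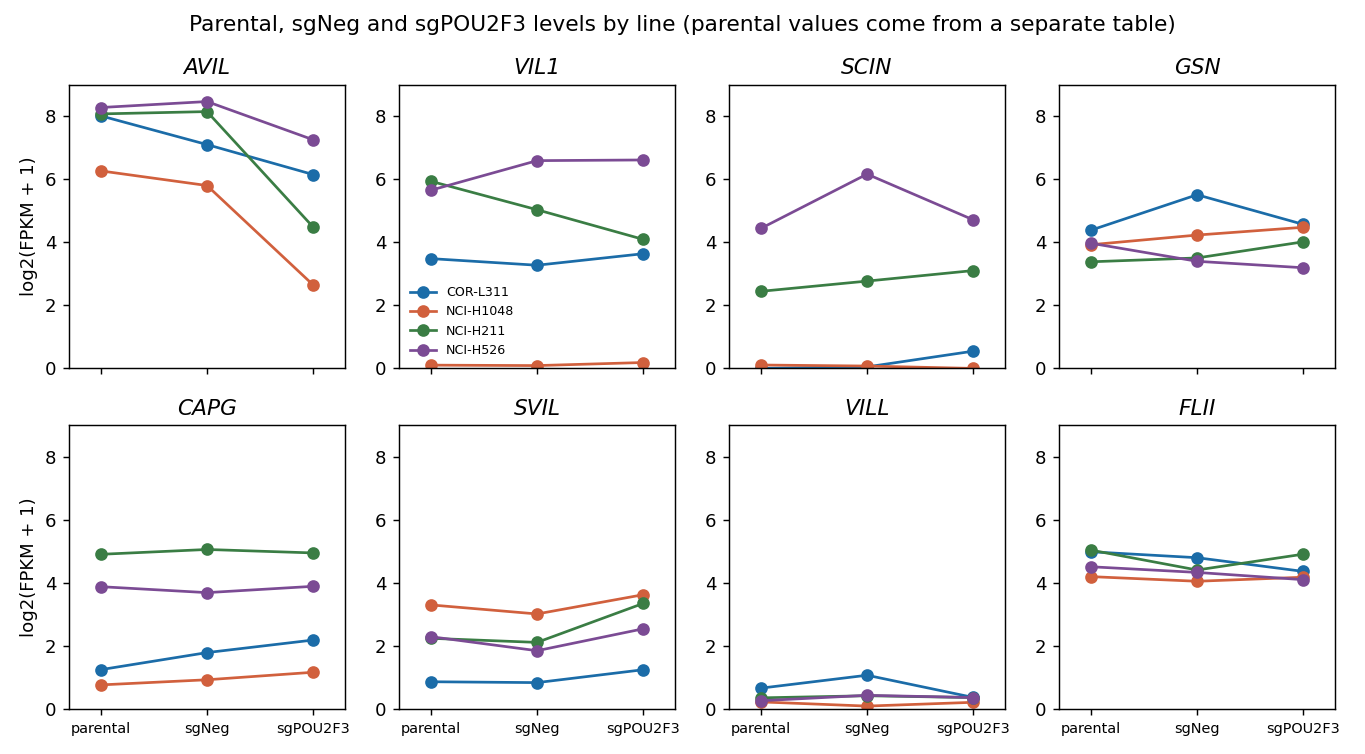
Each member in the 4 POU2F3 lines as parental, sgNeg and sgPOU2F3 values, in log2(FPKM + 1), 1 library or combined column per point. The parental values come from a separate table. AVIL is lowest with sgPOU2F3 in 4 of 4 lines, while SCIN in NCI-H526 and GSN in COR-L311 peak in sgNeg.

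A 2-fold ratio of FPKM + 1 within a line was reached by 0 members in COR-L311, by AVIL in NCI-H1048, by AVIL (lower) and SVIL (higher) in NCI-H211, and by AVIL and SCIN (both lower) in NCI-H526. With a pseudocount of 0.1 in place of 1, VILL (-1.63) and SCIN (2.06) in COR-L311 also reached it, both at 1.10 FPKM or less. Each such ratio compares 1 column with 1 column and has no error. The share of all genes 2-fold lower was 4.26% in NCI-H211, 1.92% in COR-L311, 0.783% in NCI-H1048 and 0.388% in NCI-H526. The share 2-fold higher was 4.87%, 2.81%, 0.767% and 1.39% in the same order. The median ratio over all genes was -0.03 to -0.00 in each line.

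The ratio of AVIL differed between the harvest days by 2.33 on the log2 scale, higher (nearer 0) in the day 5 lines (limma SE 0.25, 95% interval 1.71 to 2.95, unadjusted p = 8.15e-05). This was the 2nd smallest p of 12387 genes, and the adjusted p was 0.402. In this comparison 0% of all genes passed the adjusted threshold and 5.51% an unadjusted p of 0.05. GSN (-0.95, unadjusted p = 0.0212) and FLII (-0.65, unadjusted p = 0.0356) were the other members under the unadjusted level, both with an adjusted p of 0.826. Each day group holds 2 lines, and AVIL passed when NCI-H1048 (adjusted p = 0.000785) or NCI-H211 (adjusted p = 0.0367) was left out, with adjusted p of 0.23 to 1.0 in the other alternatives. Day and line differ together and cannot be told apart. The remaining POU2F3 RNA also differed, with 30.7% and 6.95% in the day 4 lines against 80.4% and 40.7% in the day 5 lines. The neurogenic factor NEUROD1 was 0.173 FPKM with sgNeg and 13.8 with sgPOU2F3 in COR-L311 and 0.107 and 11.6 in NCI-H526, while NCI-H1048 and NCI-H211 had 0 in each arm. The 9 neuroendocrine markers, NEUROD1 included, summed to 1054 FPKM with sgNeg and 959 with sgPOU2F3 in COR-L311 and 771 and 793 in NCI-H526. The largest part of each sum was UCHL1, at 749 and 517 FPKM in COR-L311 and 473 and 442 in NCI-H526. INSM1 went the other way, at 50.7 and 165 FPKM in COR-L311 and 80.7 and 138 in NCI-H526. The sums thus mainly follow UCHL1 and do not give the direction of the other markers. Of the 9, 2 and 1 were at least 2-fold higher in these lines, and 0 were 2-fold lower. In NCI-H1048 and NCI-H211, 1 and 2 were at least 2-fold lower, and 0 were 2-fold higher. The part of these markers in the AVIL difference was not tested. AVIL kept a smaller share than POU2F3 in COR-L311 and NCI-H1048 and about the same share in NCI-H211 and NCI-H526.

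**Figure D5:**
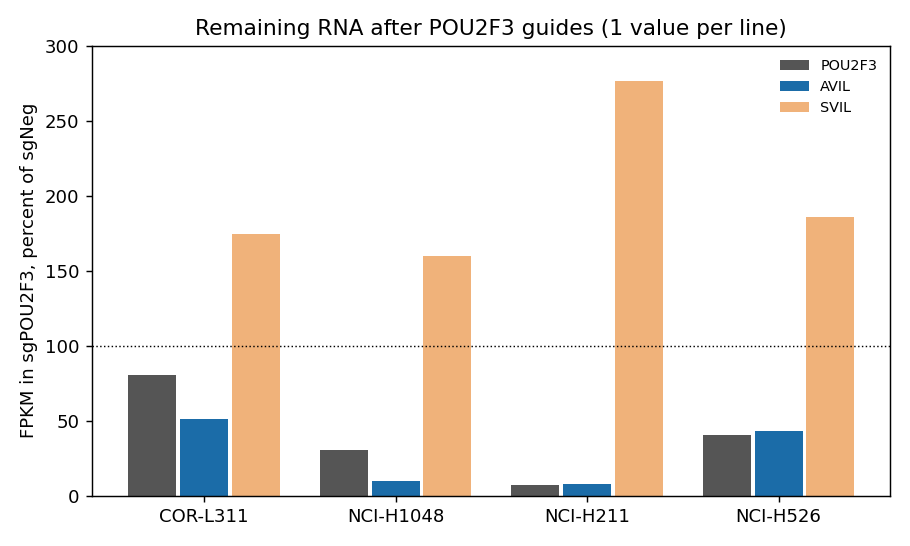
FPKM with sgPOU2F3 as percent of sgNeg for POU2F3, AVIL and SVIL in each line, 1 value per bar, with the dotted line at 100%. AVIL stands at 51.4%, 9.61%, 7.56% and 43.0%, beside POU2F3 at 80.4%, 30.7%, 6.95% and 40.7%, and every SVIL bar is above 100%.

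With the POU2F3 guides, the family's summed FPKM was smaller and differently made up. Besides AVIL, GSN in COR-L311 (44.7 and 22.8 FPKM) and SCIN in NCI-H526 (70.9 and 25.3) were lower, while SVIL was higher in each line. The members' summed FPKM was 221 with sgNeg and 129.8 with sgPOU2F3 in COR-L311, 96.5 and 56.6 in NCI-H1048, 388 and 128.9 in NCI-H211, and 564.5 and 318 in NCI-H526. AVIL still led in COR-L311 (61.8% with sgNeg and 54.1% with sgPOU2F3) and NCI-H526 (62.8% and 47.9%). In NCI-H1048 AVIL held 56.9% with sgNeg and 9.33% with sgPOU2F3, where GSN led with 37.7%. In NCI-H211 AVIL held 73.1% with sgNeg and 16.7% with sgPOU2F3, where CAPG led with 23.2%. SVIL made up 7.33% of the sum with sgNeg and 20.0% with sgPOU2F3 in NCI-H1048.

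Genes beside the members bear on what the library kit can separate, since it keeps no strand. AVIL (chromosome 12, 57797376 to 57818704, minus strand, GENCODE 29 on GRCh38; the tables use hg19) shares 303 exonic bases with TSFM, a mitochondrial translation factor gene on the other strand. TSFM log2 ratios were -0.78 in NCI-H211, -0.31 in COR-L311, -0.26 in NCI-H526 and -0.11 in NCI-H1048 (mean -0.36 ± 0.29, limma adjusted p = 0.408). They were far smaller than those of AVIL, and parental TSFM did not separate the groups (23.0 to 62.1 against 20.0 to 60.1 FPKM). How reads in the shared exons were assigned is not given in the sources used here. VIL1 (chromosome 2, 218419092 to 218453295, plus strand) shares 3045 exonic bases with USP37, a deubiquitinase gene on the other strand, whose mean log2 ratio was -0.07 ± 0.32. In NCI-H1048 USP37 was 9.48 FPKM with sgNeg where VIL1 was 0.0643.

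CAPG (chromosome 2, 85394748 to 85418432, minus strand) lies 289 bases from SH2D6, an SH2 domain gene on the other strand, and the ratios of these 2 neighbours did not overlap, a difference that was not tested. SH2D6 FPKM was 106 with sgNeg and 56.9 with sgPOU2F3 in COR-L311, 0.873 and 0.224 in NCI-H1048, 5.64 and 0.601 in NCI-H211, and 28.3 and 15.8 in NCI-H526. Its log2 ratios were -0.89, -0.61, -2.05 and -0.81 (mean -1.09 ± 0.65, SD, n = 4 lines, limma adjusted p = 0.378), all below 0, where those of CAPG were -0.11 to 0.40. In the parental lines SH2D6 was 1.04 to 67.6 FPKM in the POU2F3 lines and at most 1.45 in the others (adjusted p = 0.0998). No annotated exon is shared by CAPG and SH2D6.

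The other members lie at the following places in GENCODE 29 on GRCh38. SCIN is on chromosome 7 (12570577 to 12660179), GSN on chromosome 9 (121207794 to 121332843) and SVIL on chromosome 10 (29457338 to 29736781). VILL is on chromosome 3 (37988059 to 38007188) and FLII on chromosome 17 (18244836 to 18258916). FLII shares 40 exonic bases with LLGL1, a cell polarity gene, whose mean log2 ratio was 0.10 ± 0.34. CTDSPL, a phosphatase gene beside VILL, had a mean log2 ratio of 0.56 ± 0.31, higher in 4 of 4 lines (limma adjusted p = 0.388), while VILL was at most 1.10 FPKM in those columns.

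The genes most like each member were taken over the 14 parental lines by the mean absolute difference between centred log2(FPKM + 1) profiles, a description without a test. Closest to AVIL were C11orf53 (0.81), BMX (0.81) and POU2F3 itself (0.84). C11orf53 was 52.6 to 341 FPKM in the 4 POU2F3 lines and at most 1.10 in the others. Its knockout log2 ratios were -3.36 in NCI-H211, -2.47 in NCI-H1048, -0.67 in NCI-H526 and -0.03 in COR-L311, lowest in the 2 lines where AVIL was lowest. For the kinase gene BMX they were -2.69, -1.74, -1.45 and -0.69. No other member was close to AVIL, the nearest being VIL1 at 1.79.

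Closest to VIL1 were C1orf210 (0.93), the polarity gene CRB3 (1.04) and LTBR, the lymphotoxin beta receptor (1.05). Closest to SCIN were PPIE (0.86), TRIT1 (0.90) and MYCBP (0.91), all high in NCI-H510 and NCI-H889. Of the 3 genes closest to GSN, 2 are given: PTK7 (0.61), a receptor-like protein of planar cell polarity, and CCM2 (0.71). CAPG was closest to DNAJA4 (0.95), ZNF90 (1.05) and MB21D1 (1.06), the last being the DNA sensor cGAS. SVIL was closest to TTC6 (0.43), TDRD7 (0.46) and SNX16 (0.47), and VILL to FANK1 (0.18), YIPF1 (0.29) and ANKRD53 (0.30). FLII, nearly flat over the lines, was closest to the kinase gene MAPK3 (0.18), TMEM201 (0.21) and DIS3L2 (0.26). A small distance is easier to reach for a member that varies little, so distances are not comparable between members.

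Other actin genes were taken from 6 lists to set the family in its pathway. Among 10 tested genes of 16 on the brush border list, limma called 0 in either direction, with a median log2 ratio of -0.15. At an unadjusted p of 0.05, 1 was lower and 0 higher, where 7.08% of all genes were lower and 4.67% higher. The 1 lower gene was ESPN, espin, which bundles the parallel actin filaments of microvilli. ESPN FPKM was 82.9 with sgNeg and 45.3 with sgPOU2F3 in COR-L311, 3.65 and 2.76 in NCI-H1048, 92.7 and 21.4 in NCI-H211, and 78.2 and 55.6 in NCI-H526. Like AVIL it was lower in 4 of 4 lines, with the lowest value relative to control in NCI-H211 (mean log2 ratio -0.93 ± 0.79, SD, n = 4 lines, unadjusted p = 0.016, adjusted p = 0.397). Parental ESPN was 1.32 FPKM in NCI-H1048 and 61.7 to 65.7 in the other 3 POU2F3 lines, so the line with the least villin also had the least espin of the 4. Other lines had up to 31.8 FPKM of ESPN, and the parental difference of 2.24 did not pass (adjusted p = 0.617).

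The Arp2/3 complex, which branches filaments, had 9 of 9 genes tested and a median of -0.01. ARPC5, one of its subunits, had the smallest p on this list, with a mean log2 ratio of -0.39 ± 0.16 (lower in 4 of 4 lines, unadjusted p = 0.00891, adjusted p = 0.388), and ARPC1B stood at -0.34 ± 0.30 (unadjusted p = 0.0415). In the parental lines ARPC5 was higher in the POU2F3 group by 1.15 without passing (adjusted p = 0.247).

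The 15 genes of capping, severing and monomer binding had a median of 0.02, with 0 under an unadjusted p of 0.05. TMSB4X, thymosin beta 4, which holds actin monomers, varied most. TMSB4X FPKM was 113 with sgNeg and 474 with sgPOU2F3 in COR-L311, 678 and 611 in NCI-H1048, 124 and 3712 in NCI-H211, and 127.7 and 122.6 in NCI-H526. TMSB4X was higher with sgPOU2F3 than with sgNeg in COR-L311 and NCI-H211 and about level in the other 2 lines. The mean log2 ratio was 1.69 ± 2.37 (SD, n = 4 lines, limma adjusted p = 0.468). In the parental lines TMSB4X (-1.79, unadjusted p = 0.00729) and the profilin gene PFN2 (-0.87, unadjusted p = 0.0182) were lower in the POU2F3 group, and neither passed, with adjusted p of 0.318 and 0.457.

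Bundling and crosslinking genes (8 of 9 tested) had a median of 0.22, with ESPN lower and LCP1, the leukocyte plastin, higher at an unadjusted p of 0.05. LCP1 stood at 0.49 ± 0.32 from low levels, at most 3.59 FPKM. Actins and tropomyosins (6 of 9 tested) had a median of 0.13 and formins (9 of 9) -0.08, each with 0 genes under that level. None of the 6 lists held a gene past the adjusted threshold in the knockout or in the parental comparison. Over all genes tested, 0% were called lower and 0.0161% higher in the knockout. In the parental comparison 0.0378% were called lower and 0.212% higher. At such shares, 0 calls on short lists do not set these lists apart from all genes.

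Bundling genes and actins had their highest medians in NCI-H211, where the bundling median was 0.75 and the actin and tropomyosin median 0.60, beside -0.03 over all genes. In that line ACTN1, an alpha-actinin, was 59.5 FPKM with sgNeg and 225 with sgPOU2F3. ACTN4 was 92.2 and 345, and the filamin gene FLNA 130 and 418. Lower on the same bundling list were the bundling gene FSCN1, at 112 and 54.6 FPKM, and ESPN, at 92.7 and 21.4. The tropomyosin gene TPM1 was 62.4 and 155. The 2 largest ratios of all lists in NCI-H211 were those of TMSB4X (4.89) and FLNC (2.21), and the 2 lowest those of ESPN (-2.07) and USH1C (-1.04), a scaffold of microvillus tips. In NCI-H526 the bundling median was -0.28 and the actin and tropomyosin median -0.25. The summed fibroblast and smooth muscle markers given beside SVIL were also higher in NCI-H211 with sgPOU2F3, through TAGLN, LUM and CNN1, while DCN was lower, and their part in these values was not tested. In bulk RNA, fewer cells of a kind and less RNA per cell cannot be told apart.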

How the data were processed

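PolyA RNA was sequenced from 26 libraries (TruSeq v2, no strand kept). The authors deposited FPKM for the 4 knockout lines (both guides in 1 column) and 14 parental lines; the labels call the parental values RPKM and the table FPKM. Per the submitters' processing notes, TopHat2, Cufflinks, Cuffdiff and hg19 were used; versions, roles and annotation are not given in the sources used here. The members and lists were chosen with earlier results of these data known.

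Values were taken as log2(FPKM + 1), keeping genes that reached 1 FPKM in 4 or more of 8 (knockout) or 14 (parental) columns. The trend method of limma 3.58.1 (R 4.3.3), with Benjamini-Hochberg adjustment over all genes at 0.05, used line and arm as terms (3 residual degrees of freedom), an arm by day term (2), or 4 parental lines against 10 (12). On simulated data, 200 genes with a mean log2(FPKM + 1) above 3 were shifted by 2 on the log2 scale. Of these, 92.5% were recovered in the knockout fit (7 false calls among 12207 genes) and 73.5% in the parental fit (7 among 13020). Genes of low level were not among those shifted, and these shares are not the power for a single member. The exact permutation test went through all splits with Python 3.11.15 and numpy 2.4.6. Depth was estimated from the steps of low FPKM values with GENCODE 29 transcript lengths, a different build, so it is approximate; genes listed at 0 were 18.3% to 21.5% in sgNeg and 13.8% to 15.9% in the combined columns.

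Named are all members, POU2F3 and line markers; overlapping or neighbouring genes; on each list, the 2 smallest p in each direction or the 2 largest ratios in a line, given in part; and the 3 genes most like each member. Some genes that this rule takes are not reported here. The NEUROD1 lines, ACTN1, ACTN4, FLNA, FSCN1, TPM1 and MYCL were chosen after their values were seen. Alternatives were another pseudocount, 2 other filters, quantile normalization, centred ratios, no trend and each line left out.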

Additional observations from a re-analysis of the deposited data

Results flagged for a closer look

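AVIL in parental NCI-H1048 lay apart from the other 3 POU2F3 lines, at 6.27 on the log2(FPKM + 1) scale where the next lowest line stood at 8.02. The gap was 0.868 of the range of the 4 lines, above the critical value of 0.829. It was the 1 value to stand out in 24 groups tested, and chance gives about 1 in 20. The same line had the lowest VIL1 of the 4 and the highest SVIL.

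GSN and FLII had ratios above 0 in both day 4 lines and below 0 in both day 5 lines. The difference between the days was -0.95 for GSN (limma unadjusted p = 0.0212, adjusted p = 0.826) and -0.65 for FLII (unadjusted p = 0.0356, adjusted p = 0.826). Neither passed, and day and line cannot be told apart.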

How the results depend on the processing

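No member was called in the knockout comparison under any of its 10 alternatives, and AVIL alone was called in the parental comparison under all 19. AVIL stayed between -1.77 (without NCI-H211) and -2.68 (without COR-L311) in the knockout, with adjusted p of 0.332 to 0.663, and between 6.14 and 7.23 in the parental lines. SVIL stayed between 0.57 and 0.93 in the 9 alternatives that tested it; an FPKM minimum of 5 left it out.

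Over all genes, the 2 knockout calls became 0 with a pseudocount of 0.1, with no filter, without the trend and on leaving out each line (0 to 0), and 1 with quantile normalization. Parental calls, 33 in all, ranged from 21 (without COR-L311) to 50 (without NCI-H1048) on leaving out lines. The day comparison rests on single lines: leaving out 1 at a time gave 0 to 488 calls over all genes, 0 to 1 members called (AVIL) and AVIL differences of 2.07 to 2.58. AVIL passed without NCI-H1048 (adjusted p = 0.000785) and without NCI-H211 (adjusted p = 0.0367), with 1 line then left on day 4 and assumed to vary like the others.

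Members not called crossed 0 under some settings. In the knockout, SCIN was 0.0854 with a pseudocount of 0.1, and FLII 0.04 with quantile normalization and 0.00812 with centred ratios. Leaving out lines gave VIL1 -0.27 to 0.16, SCIN -0.40 to 0.25, GSN -0.30 to 0.18 and FLII -0.18 to 0.13. By day, SCIN was 0.41 with a pseudocount of 0.1 and -1.58 to 0.37 without single lines. In the parental lines SCIN was 0.10 with quantile normalization, and leaving out lines gave SCIN -0.90 to 0.58, GSN -0.23 to 0.29, CAPG -0.61 to 0.77, SVIL -0.51 to 0.30 and FLII -0.25 to 0.0317. The octamer without its last letter was found for 1 member, against 0 with all 8 letters. The cause of these shifts was not tested. The main knockout fit compares the arms within each line. No paired analysis by guide number was possible because the guides share 1 column per line, and fits on single guides were not run. With a pseudocount of 0.1, 7 of the members' 32 within-line ratios reached 2-fold, against 5. Depth limits VILL, SCIN and VIL1 to a few fragments in NCI-H1048.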

Other observations

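SCIN and its 3 most like genes peaked in the same pair of lines. PPIE was 1297 FPKM in NCI-H510 and 1389 in NCI-H889, against 23.4 to 77.5 in the other 12 lines. TRIT1 was 700.4 and 1103 against at most 87.6, and MYCBP 106 and 305 against at most 28.5. MYCL, a MYC family oncogene looked up after these values were seen, was 1455 and 489 FPKM against at most 112 (NCI-H128). These 4 genes lie on chromosome 1 and SCIN on chromosome 7, where it was 59.7 and 52.6 FPKM in that pair.

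In COR-L311 the cardiac actin gene ACTC1 was 0.0232 FPKM with sgNeg and 4.33 with sgPOU2F3, and at most 0.0538 in the other 6 infected columns. The formin genes FHOD1 (11.5 and 4.49) and FMNL2 (17.0 and 34.8) lay on opposite sides in that line.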
